A study of Mus musculus with 10 samples.

Results

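The Wnt genes examined here comprised the secreted Wnt ligands, the Frizzled and Lgr receptors with the Lrp coreceptors, the inhibitors, and the genes Ctnnb1, Axin2, Lef1 and Tcf7, counted here as the intracellular genes. The inhibitors were the secreted Sfrp and Dkk proteins and Wif1, the membrane proteins Rnf43 and Znrf3, and Nkd1, which acts inside the cell. All these genes were taken by gene symbol, a choice made with earlier results of these data known. For each gene the probe whose deposited values averaged highest across the 10 arrays was used. Of 51 symbols that fitted, 49 had a probe, out of 19096 genes with a symbol on the array. Lrp5 and Fzd10os had no paired probe and are not analysed here. The 49 genes were 19 ligands, 14 receptors, 12 inhibitors and 4 intracellular genes.

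In the canonical branch of the pathway, a Wnt ligand binds a Frizzled receptor and Lrp5 or Lrp6, the complex that destroys β-catenin is held back, and β-catenin (Ctnnb1) joins the DNA-binding proteins Lef1 and Tcf7 on target genes such as Axin2. Axin2, Nkd1, Rnf43 and Znrf3 are feedback inhibitors of the pathway, whereas Sfrp, Wif1 and Dkk proteins act outside the cell on the ligand or the coreceptor. In the lung, Wnt signals from mesenchyme and epithelium direct the formation of the organ in the embryo and take part in the upkeep of alveoli and airways in the adult.

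RNA came from 5 whole-lung samples of wild-type mice (WT) and from 5 whole lung squamous cell carcinomas (SCC), all aged 13 months and without treatment. The strain is written B6.129 in the labels, while the study's methods write it as a mixed background of the same strains. WT mice carried the floxed alleles (Lkb1f/f), with no Cre named in their labels, and SCC mice were CCSPiCreLkb1f/f, in which the Club Cell Secretory Protein promoter drives Cre in the airway epithelium, so that Lkb1 (Stk11), which encodes a tumour suppressor kinase, is lost there. The comparison asked which Wnt genes differed between a squamous tumour formed after this loss and normal lung. Because a whole tumour was set against a whole lung, a higher or lower value can stand for more or fewer cells of a type. It can also stand for more or less RNA per cell, and these cannot be told apart. The labels number the replicates without naming animals, and the study's methods call its replicates biological, so p-values measure the spread between these samples. Stk11 itself had no paired probe and is not analysed here.

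One single-colour Agilent array was hybridised per sample, with 43379 spots for 41174 probes, and between 71.0% and 74.3% of probes were well above background on 9 arrays and 90.2% on SCC replicate 5. Slide 1 carried WT replicates 1 to 4, slide 2 carried WT replicate 5 beside SCC replicates 1 to 3, and slide 3 carried the remaining tumours. The squamous marker list (Krt5, Krt14, Trp63, Krt6a, Krt16, Dsg3 and Sprr1b) was called higher for 7 of 7 genes, with a mean log2 intensity of 4.32 to 4.95 on the WT arrays and 10.18 to 14.54 on the SCC arrays. Krt6a, Dsg3 and Sprr1b were not well above background on any WT array. SCC replicate 2 stood apart, with the lowest squamous (10.18), neutrophil (10.68) and proliferation (9.37) means of the SCC arrays, and its value was the nearest of the 5 SCC arrays to the WT mean for 14 of the 19 called Wnt genes. Results are given with these arrays, and 0 of the 19 calls were lost without SCC replicate 2, without SCC replicate 5 or without both. Without replicate 2 alone, Dkk3 was gained.

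Values are log2 of the quantile-normalized intensity, and a difference is SCC minus WT on that scale. A gene was called higher or lower at a limma adjusted p below 0.05 together with at least a 2-fold difference. Levels of different probes are not compared. Of the 49 genes, 40 passed the filter on dim probes and were tested, and 36 were well above background on all 10 arrays. The calls were 6 genes higher in SCC (15% of those tested), where 11.6% of all 15586 tested genes were called higher, and 13 genes lower (32.5%), where the share over all genes was 13.4%. An adjusted p below 0.05 at any fold was met by 27 Wnt genes (67.5%), against 53.9% of all tested genes. For 23 Wnt genes (57.5%) the WT and SCC values did not overlap, against 41.2% of all tested genes. The median difference was -0.44 over the 40 Wnt genes and -0.04 over all tested genes. These shares describe the genes that passed the filter, and no test was made of the list. Within slide 2, the one slide with both groups, all 3 SCC arrays were beyond WT replicate 5 in the direction of the call for 19 of 19 called genes. For 18 of these the groups did not overlap over all arrays, which fixes that order, so the values within slide 2 are given as a description and not as a separate check. For the called genes other than Lgr5, the exact two-sided permutation p was 0.00794, the smallest that 5 against 5 arrays can give.

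**Figure D1:**
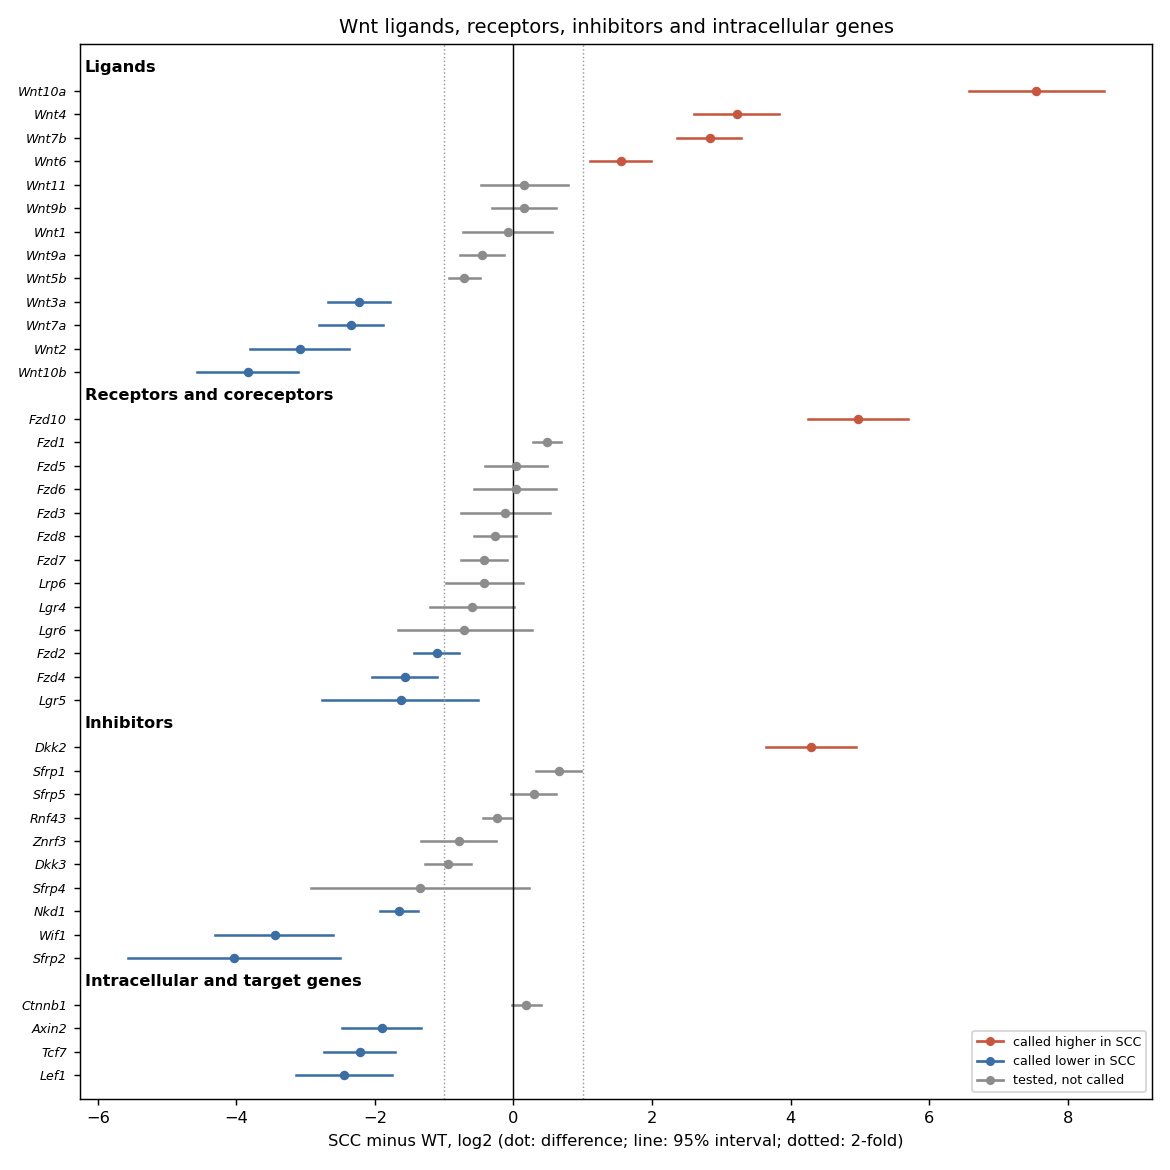
Difference between SCC and WT (log2, x axis) for each of the 40 tested Wnt genes (y axis), grouped by role. Dots are differences, lines 95% confidence intervals, the colour gives the call, and the dotted lines mark a 2-fold difference. Ligands spread to both sides, from 7.55 for Wnt10a to -3.84 for Wnt10b, and among the intracellular genes all but Ctnnb1 lay below -1.

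The ligands moved in both directions. Of 19 ligands, 13 were tested, 4 were higher in SCC (Wnt10a, Wnt4, Wnt7b and Wnt6), 4 were lower (Wnt10b, Wnt2, Wnt7a and Wnt3a) and 5 were not called. Wnt10a, a ligand known from hair follicle and tooth development, had the largest difference of the 40 genes. Its intensity was 4.31, 5.74, 4.71, 6.29 and 5.56 on WT replicates 1 to 5 and 13.12, 11.61, 13.19, 13.24 and 13.19 on SCC replicates 1 to 5. Wnt10a was thus higher on every SCC array than on any WT array, with SCC replicate 2 the lowest of the tumours, and the difference was 7.55 ± 0.44 (SE, n = 5 and 5), limma adjusted p = 2.8e-06, or 187-fold. Within slide 2 it was 7.08. The size depended on the background correction, and the difference was 5.60 with normexp, a model-based correction that lifts dim probes.

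Wnt4, which acts in the formation of the kidney and the female reproductive tract, read 7.97, 7.17, 7.48, 7.66 and 8.0 on WT replicates 1 to 5 and 11.00, 9.89, 11.25, 11.01 and 11.21 on SCC replicates 1 to 5. SCC replicate 2 was again the lowest tumour, and the groups did not overlap. The difference was 3.22 ± 0.28 (SE, n = 5 and 5), limma adjusted p = 2.06e-05, or 9.29-fold, 2.71 within slide 2 and 2.59 with normexp. Wnt7b, an epithelial ligand of the developing lung, gave 7.03, 6.51, 6.67, 6.63 and 6.85 on WT replicates 1 to 5 and 9.67, 8.81, 9.60, 9.78 and 9.96 on SCC replicates 1 to 5. All 5 tumours exceeded all 5 lungs. Wnt7b differed by 2.83 ± 0.21 (SE, n = 5 and 5), limma adjusted p = 9.71e-06, or 7.09-fold, by 2.51 within slide 2 and by 1.97 with normexp. Wnt6, a ligand of several embryonic epithelia, rose by 1.55 ± 0.20 (SE, n = 5 and 5; limma adjusted p = 0.000181), a call that was lost with normexp background correction. Wnt6 and Wnt10a follow each other on chromosome 1 in the RefSeq gene order, and both rose. Of the 4 neighbouring pairs of Wnt ligands, this was the only one with calls for both genes. In the other pairs, Wnt3a and Wnt9a differed by -2.23 and -0.46, Wnt10b and Wnt1 by -3.84 and -0.08, and Wnt9b by 0.15 with Wnt3 untested.

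Among the ligands that fell, Wnt10b, which restrains fat cell formation and promotes bone formation, had the largest difference. Its intensity was 8.53, 8.33, 8.17, 8.42 and 8.42 on WT replicates 1 to 5 and 4.75, 5.58, 3.50, 4.73 and 4.12 on SCC replicates 1 to 5. The WT arrays lay close together and every SCC array was lower. The difference was -3.84 ± 0.33 (SE, n = 5 and 5), limma adjusted p = 1.98e-05, or 14.3-fold, -3.81 within slide 2 and -1.72 with normexp. Wnt10b was well above background on 4 of the 5 SCC arrays. Wnt2, made by lung mesenchyme and needed for the lung to form in the embryo, read 12.81, 12.96, 12.94, 13.15 and 12.42 on WT replicates 1 to 5 and 9.48, 10.96, 9.01, 9.70 and 9.73 on SCC replicates 1 to 5. SCC replicate 2 was the highest tumour and still below the lowest lung. Wnt2 differed by -3.08 ± 0.32 (SE, n = 5 and 5), limma adjusted p = 5.77e-05, or 8.46-fold, and by -2.61 within slide 2.

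Wnt7a, which patterns the limb and the female reproductive tract, gave 8.88, 8.44, 8.33, 8.59 and 8.50 on WT replicates 1 to 5 and 6.03, 6.92, 5.91, 6.33 and 5.83 on SCC replicates 1 to 5. The groups did not overlap. Its difference was -2.35 ± 0.21 (SE, n = 5 and 5), limma adjusted p = 2.43e-05, or 5.08-fold, -2.22 within slide 2 and -1.31 with normexp. Wnt3a, a canonical ligand of the early embryo, fell by 2.23 ± 0.20 on the log2 scale (SE, n = 5 and 5; limma adjusted p = 2.69e-05).

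Of the remaining tested ligands, Wnt5b (-0.71, adjusted p = 0.000331) and Wnt9a (-0.46, adjusted p = 0.0234) passed the adjusted p below 2-fold. Wnt11, Wnt9b and Wnt1 differed by 0.15, 0.15 and -0.08, with adjusted p from 0.553 to 0.829. Untested for dim signal were Wnt16, Wnt2b, Wnt3, Wnt5a, Wnt8a and Wnt8b. For Wnt2b, 0 of 10 arrays were well above background. Wnt16 was well above background on no WT array and on 2 SCC arrays. Its measured values overlapped between the groups. Its SCC level is a bound with no test, at least 2.11-fold higher and at least 1.39-fold higher without SCC replicate 2 (7.62), the highest of the tumours.

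**Figure D2:**
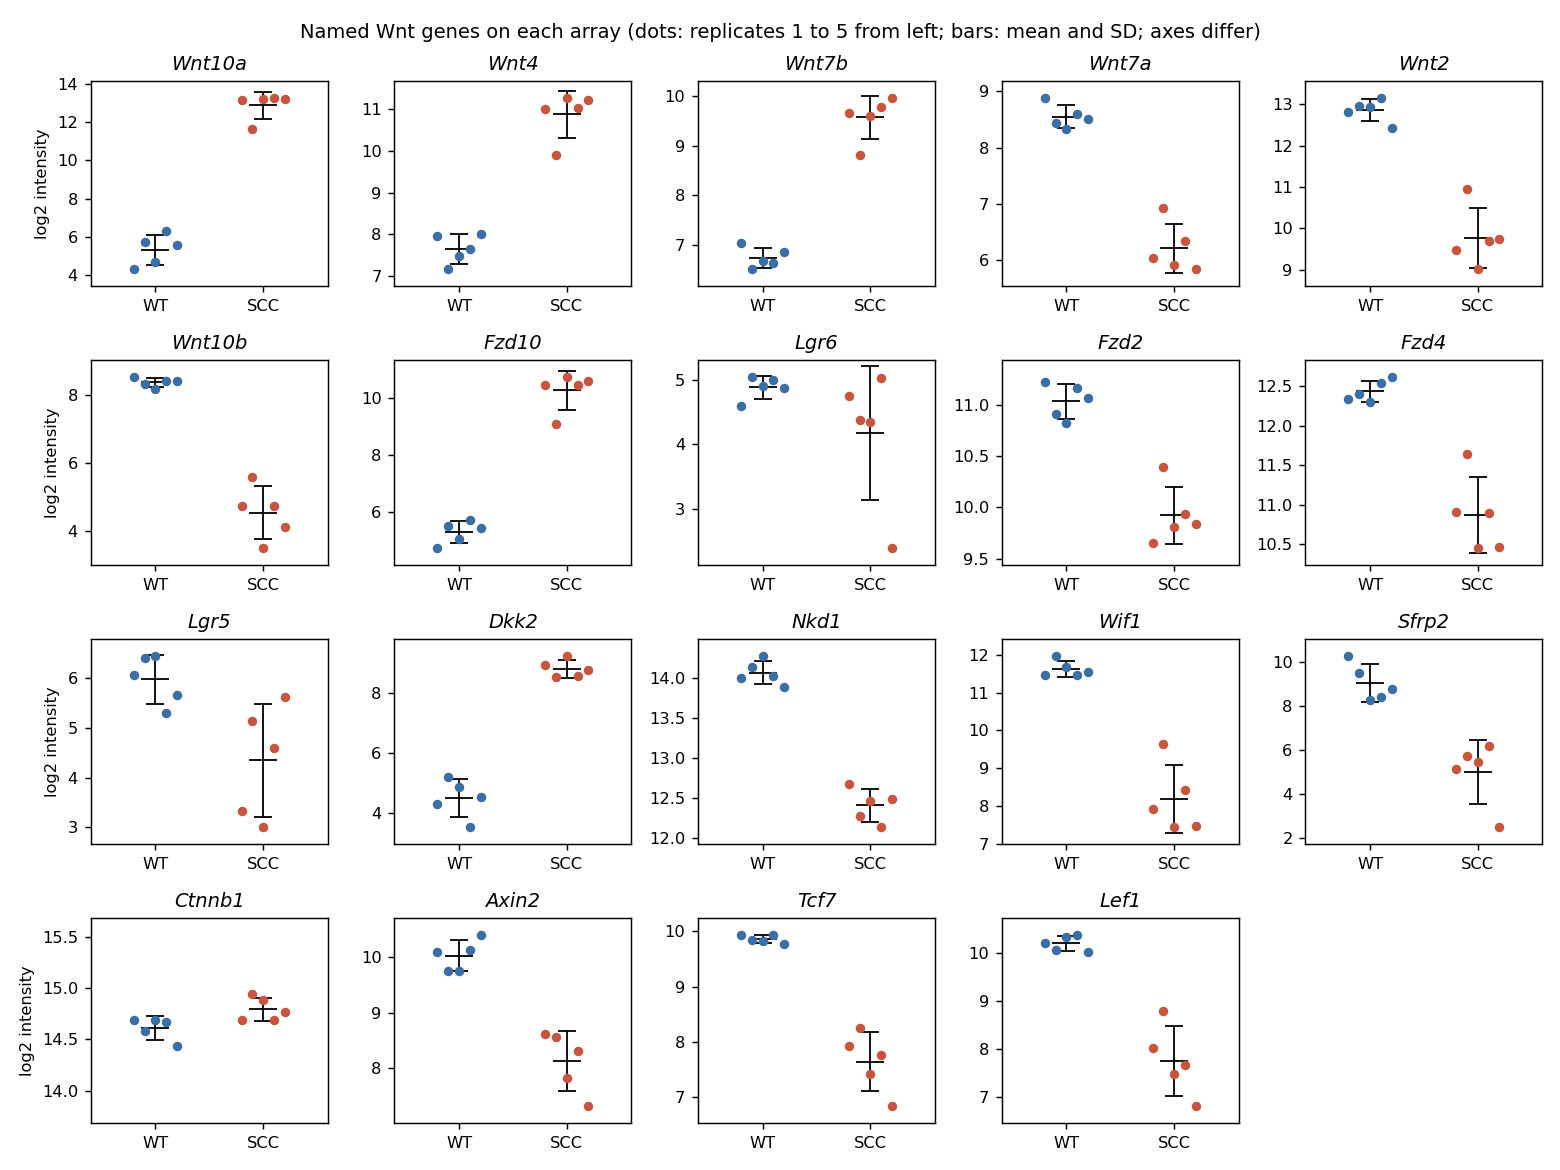
Log2 intensity (y axis, a separate range in each panel, never under 2 units) of 19 Wnt genes on the 5 WT and 5 SCC arrays. Dots are replicates 1 to 5 from left to right, and bars give the mean and SD. Groups are separate for all genes shown but Lgr5, Lgr6 and Ctnnb1, and SCC replicate 2 lies nearest to the WT mean for 14 of the 19 called Wnt genes.

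Of 14 receptors, 13 were tested, 1 was higher and 3 were lower. Fzd10, a Frizzled receptor, was the one called higher. It read 4.74, 5.53, 5.06, 5.71 and 5.43 on WT replicates 1 to 5 and 10.45, 9.08, 10.74, 10.47 and 10.59 on SCC replicates 1 to 5. SCC replicate 2 was the lowest tumour and all tumours lay above all lungs. The difference was 4.97 ± 0.32 (SE, n = 5 and 5), limma adjusted p = 4.9e-06, or 31.3-fold, 4.65 within slide 2 and 3.25 with normexp. A dimmer Fzd10 probe was also called higher, by 3.00 (adjusted p = 4.62e-05). 

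Fzd4, which also binds the ligand norrin and is needed for retinal vessels, gave 12.34, 12.41, 12.30, 12.54 and 12.62 on WT replicates 1 to 5 and 10.91, 11.64, 10.45, 10.90 and 10.47 on SCC replicates 1 to 5. The highest SCC value, in replicate 2, was below the lowest WT value. Fzd4 differed by -1.57 ± 0.21 (SE, n = 5 and 5), limma adjusted p = 0.00026, or 2.97-fold, and by -1.62 within slide 2. Fzd2 read 11.22, 10.91, 10.82, 11.16 and 11.06 on WT replicates 1 to 5 and 9.65, 10.39, 9.81, 9.93 and 9.84 on SCC replicates 1 to 5. Its groups did not overlap and replicate 2 was again the highest tumour. The Fzd2 difference was -1.11 ± 0.15 (SE, n = 5 and 5), limma adjusted p = 0.000235, or 2.16-fold, and -1.11 within slide 2. A second Fzd2 probe differed by -1.51 and was not called (adjusted p = 0.0666), although its groups did not overlap (exact permutation p = 0.00794). On that probe SCC replicate 5 (2.73) was far below the other tumours (5.69 to 6.30), and without it the difference was -0.89.

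Lgr5 and Lgr6 encode receptors for R-spondins, which amplify Wnt signals, and mark stem cells of the intestine and the skin. Lgr5 was 6.07, 6.41, 6.45, 5.30 and 5.67 on WT replicates 1 to 5 and 3.34, 5.14, 3.01, 4.60 and 5.63 on SCC replicates 1 to 5. SCC replicate 5 (5.63) lay inside the WT range, so the groups overlapped. The difference was -1.63 ± 0.50 (SE, n = 5 and 5), limma adjusted p = 0.0227, exact permutation p = 0.0159, and -1.84 within slide 2. Lgr5 passed the filter through the WT group only, with 3 of 5 SCC arrays well above background, and its call was lost with normexp, where the difference was -0.48, with slide as a block (adjusted p = 0.186), with 75th percentile scaling (0.155) and with a replicate block (0.0538). It was also lost without WT replicate 2 (0.052), WT replicate 3 (0.0536) or SCC replicate 1 (0.052).

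Lgr6 read 4.59, 5.04, 4.90, 5.00 and 4.87 on WT replicates 1 to 5 and 4.74, 4.37, 4.35, 5.02 and 2.39 on SCC replicates 1 to 5. The groups overlapped, with SCC replicate 5 far below the others. Its difference was -0.71 ± 0.43 (SE, n = 5 and 5), limma adjusted p = 0.198, exact permutation p = 0.0794, and -0.38 within slide 2. Lgr4, the third R-spondin receptor, had 3 probes that disagreed. The brightest probe, used here by the rule, differed by -0.60 (adjusted p = 0.0935), and the dimmer ones by 1.57 (adjusted p = 0.000111) and 2.47 (adjusted p = 2.13e-07). On these dimmer Lgr4 probes the WT and SCC values did not overlap. The mean over the Lgr4 probes was higher in SCC by 1.15 (adjusted p = 5.2e-05).

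Fzd1 (0.49, adjusted p = 0.00186) and Fzd7 (-0.43, adjusted p = 0.0365) passed the adjusted p below 2-fold. Fzd3, Fzd5, Fzd6, Fzd8 and the coreceptor Lrp6 had differences between -0.43 and 0.04 that did not pass. The 95% interval for Lrp6 was -0.98 to 0.13. Fzd9 was untested for dim signal.

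Of 12 inhibitors, 10 were tested, 1 was higher and 3 were lower. Dkk2, a secreted protein that binds the Lrp5 and Lrp6 coreceptors, gave 4.31, 5.19, 4.88, 3.54 and 4.53 on WT replicates 1 to 5 and 8.91, 8.52, 9.22, 8.54 and 8.74 on SCC replicates 1 to 5. All SCC values exceeded all WT values, and the tumours lay close together. The difference was 4.29 ± 0.29 (SE, n = 5 and 5), limma adjusted p = 6.08e-06, or 19.6-fold, 4.35 within slide 2 and 2.19 with normexp. Sfrp2, a secreted decoy with a Frizzled-like domain, read 10.30, 9.54, 8.27, 8.42 and 8.78 on WT replicates 1 to 5 and 5.16, 5.76, 5.48, 6.22 and 2.52 on SCC replicates 1 to 5. SCC replicate 5 (2.52) was far below the other tumours, and every tumour was below every lung. Sfrp2 differed by -4.03 ± 0.68 (SE, n = 5 and 5), limma adjusted p = 0.00101, or 16.4-fold, by -3.31 within slide 2 and by -2.18 with normexp, and this call was lost with slide as a block (-3.31 ± 1.30, SE; adjusted p = 0.133).

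Wif1, a secreted protein that binds Wnt ligands, was 11.48, 11.98, 11.69, 11.46 and 11.54 on WT replicates 1 to 5 and 7.92, 9.63, 7.44, 8.43 and 7.47 on SCC replicates 1 to 5. SCC replicate 2 was the highest tumour and the groups did not overlap. The difference was -3.45 ± 0.38 (SE, n = 5 and 5), limma adjusted p = 8.01e-05, or 11.0-fold, -3.22 within slide 2 and -2.83 with normexp. Nkd1, a feedback inhibitor that binds dishevelled proteins, gave 14.00, 14.14, 14.28, 14.03 and 13.89 on WT replicates 1 to 5 and 12.68, 12.28, 12.47, 12.14 and 12.49 on SCC replicates 1 to 5. All tumours were below all lungs. Nkd1 differed by -1.65 ± 0.12 (SE, n = 5 and 5), limma adjusted p = 9.78e-06, or 3.15-fold, and by -1.41 within slide 2. A dimmer Nkd1 probe was also called lower, by -1.32.

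The other tested inhibitors were not called. Sfrp1 (0.65, adjusted p = 0.00503), Dkk3 (-0.95, adjusted p = 0.000623), Znrf3 (-0.79, adjusted p = 0.0217) and Rnf43 (-0.24, adjusted p = 0.048) passed the adjusted p below 2-fold, and Sfrp5 (0.29) and Sfrp4 (-1.35) did not pass. The Sfrp4 value rested on SCC replicate 5 (2.30), without which it was -0.67, and SCC replicate 4 (6.90) lay above every WT value. Znrf3 and Rnf43 are ligases that remove Frizzled receptors from the cell surface. Dkk1 and Dkk4 were untested for dim signal.

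The intracellular genes other than Ctnnb1 fell. Axin2, a scaffold of the destruction complex and a commonly used readout of the canonical pathway, read 10.10, 9.75, 9.75, 10.14 and 10.41 on WT replicates 1 to 5 and 8.61, 8.56, 7.82, 8.31 and 7.32 on SCC replicates 1 to 5. No SCC value reached the lowest WT value. The difference was -1.90 ± 0.26 (SE, n = 5 and 5), limma adjusted p = 0.000266, or 3.74-fold, and -2.08 within slide 2. Lef1, a DNA-binding partner of β-catenin, gave 10.21, 10.06, 10.34, 10.39 and 10.03 on WT replicates 1 to 5 and 8.02, 8.79, 7.48, 7.67 and 6.81 on SCC replicates 1 to 5. SCC replicate 2 was the highest tumour and lay below all lungs. Lef1 differed by -2.45 ± 0.31 (SE, n = 5 and 5), limma adjusted p = 0.000171, or 5.47-fold, and by -1.93 within slide 2. Tcf7, a related DNA-binding protein that is also a factor of T cell development, was 9.94, 9.85, 9.82, 9.93 and 9.77 on WT replicates 1 to 5 and 7.92, 8.25, 7.41, 7.76 and 6.84 on SCC replicates 1 to 5. The groups did not overlap, and the lungs varied little. The Tcf7 difference was -2.22 ± 0.23 (SE, n = 5 and 5), limma adjusted p = 5.6e-05, or 4.67-fold, and -1.91 within slide 2. Dimmer probes of Lef1 (-1.77) and Tcf7 (-2.23) were called lower too. Over all Wnt genes, 14 further probes were tested, of which 10 had the sign of the probe used and 0 were called against a call of it. The 4 with the other sign belonged to Lgr4, Fzd3 (0.71 against -0.12) and Wnt5b (0.04 against -0.71), and the Fzd3 and Wnt5b ones were not called. Without SCC replicate 5 these last pairs had the same sign, with 0.15 for the Fzd3 probe used and -0.49 for the second Wnt5b probe.

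Ctnnb1, which encodes β-catenin, read 14.69, 14.58, 14.69, 14.67 and 14.43 on WT replicates 1 to 5 and 14.69, 14.94, 14.88, 14.69 and 14.77 on SCC replicates 1 to 5. The groups overlapped. Its difference was 0.18 ± 0.09 (SE, n = 5 and 5), limma adjusted p = 0.128, exact permutation p = 0.0317, with a 95% interval of -0.02 to 0.39. A dimmer Ctnnb1 probe differed by 0.31 (adjusted p = 0.022). The arrays measure RNA, and β-catenin is controlled mainly through the stability of its protein, which they do not measure.

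Marker genes of other cell types also differed between the groups. Endothelial markers were lower for 5 of 6 genes (mean 13.72 to 13.96 on WT and 11.35 to 12.45 on SCC arrays). Fibroblast and mesenchyme markers were lower for 4 of 6 (13.33 to 13.51 and 11.58 to 12.89). Alveolar type 1 markers were lower for 4 of 5 with a probe and mesothelial markers for 3 of 3 (10.63 to 11.25 and 5.34 to 7.33). Smooth muscle and pericyte markers were lower for 3 of 6. Of the genes not called in these lists, Col1a1 (0.66) and Aqp5 (0.64) were higher at a limma adjusted p below 0.05. Emcn (-0.84) and Pdgfrb (-0.83) were lower at that threshold. T cell markers were lower for 4 of 6 genes, with means of 8.43 to 9.16 on WT and 7.41 to 7.87 on SCC arrays. SCC replicate 2 had the lowest T cell mean of the tumours (7.41) and the highest Lef1 (8.79) and Tcf7 (8.25) values. Cd3d (-1.36), Cd3g (-1.44), Cd8a (-2.48) and Lck (-1.37) fell, whereas Cd3e (-0.08) and Cd4 (0.19) were not called. Cardiac and skeletal muscle markers were lower for 4 of 6 genes and spread on the WT arrays from 8.67 to 11.80. Ciliated markers were lower for 2 of 5, and club markers lower for 2 and higher for 1 of 4. The higher club marker, Scgb3a1, rose by 6.67, whereas Scgb1a1 (-1.33) and Scgb3a2 (-1.32) fell. Alveolar type 2 markers were called for 0 of 6 genes at 2-fold by limma, but their mean was lower on every SCC array (14.10 to 14.78) than on any WT array (14.86 to 14.99). Of these, Sftpb (-0.86), Lamp3 (-0.81), Slc34a2 (-0.51) and Napsa (-0.98) passed the adjusted p, and Sftpc read the same 18.80 on all 5 WT arrays. Neutrophil markers were higher for 3 of 4 genes, macrophage markers for 1 of 3 with a probe and proliferation markers for 4 of 4 (6.90 to 8.08 and 9.37 to 11.14). The part of these cell types in the Wnt differences was not tested.

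**Figure D3:**
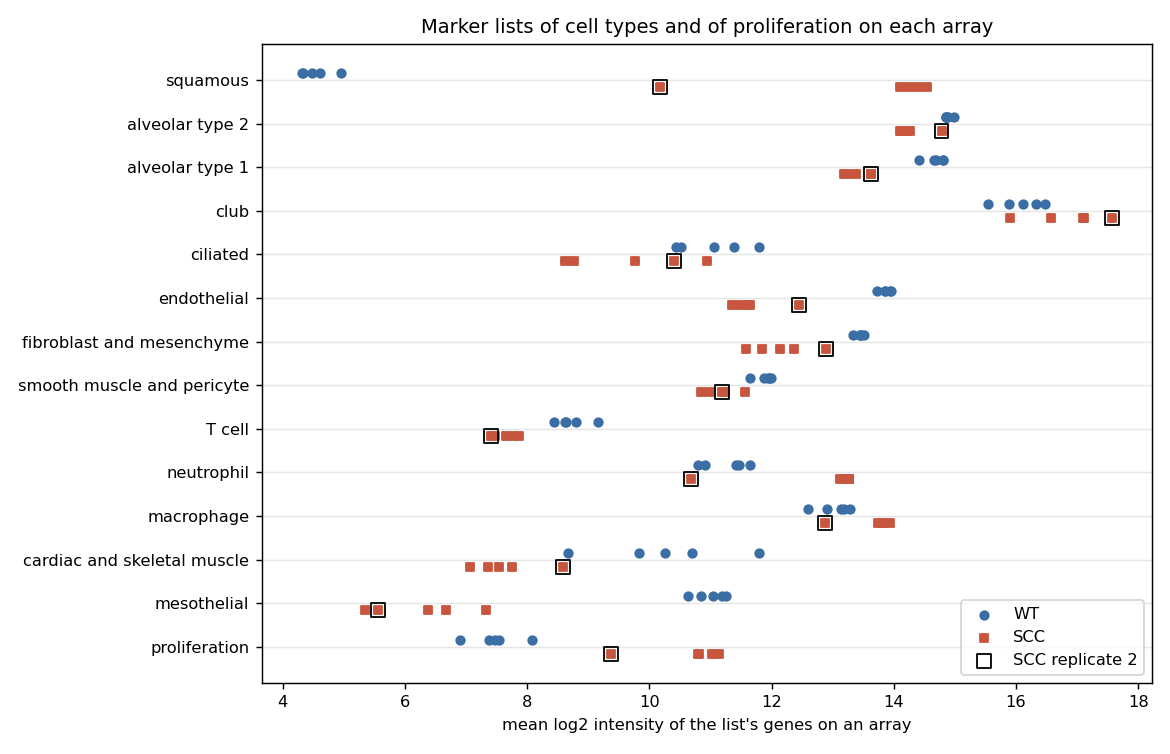
Mean log2 intensity (x axis) of the genes of each marker list (y axis) on each of the 5 WT arrays (circles) and 5 SCC arrays (squares), with SCC replicate 2 outlined. Endothelial, fibroblast, T cell and mesothelial means were lower on every SCC array than on any WT array, and squamous and proliferation means were higher.

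RefSeq promoter windows (GRCm38.p6, 250 bases before the annotated start) were found for 34 of the 49 genes. They were searched on both strands for the T-cell factor motif CTTTGAA or CTTTGAT, the letters that Lef1 and Tcf7 proteins are known to bind. The motif lay in a window of 3 of the 34 genes (8.8%), Dkk1, Wnt11 and Wnt5b, against 8.6% of all 27025 genes in the table. It lay in 0 of the 4 called-higher and 0 of the 11 called-lower genes with a window. The shorter core CTTTG, which is contained in the motif, lay in 17 of 43 windows of Wnt genes (39.5%) and in 48.6% of all 32851 windows. The windows of Axin2 and Lef1, which fell, and of Fzd10, which rose, are shown 5′ to 3′ because these genes stand for both directions, with the core on either strand (CTTTG or CAAAG) in capitals. Axin2 (chr11:108920099-108920348, plus strand) holds no core. Lef1 has 4 windows, and the one with the lowest coordinate (chr3:131110047-131110296, plus strand) and Fzd10 (chr5:128600856-128601105, plus strand) each hold 1. The other Lef1 windows, in order of coordinate, hold 2, 1 and 3 and are not shown. These letters are a description of the windows, and the probes of the arrays do not bear on them.
Axin2: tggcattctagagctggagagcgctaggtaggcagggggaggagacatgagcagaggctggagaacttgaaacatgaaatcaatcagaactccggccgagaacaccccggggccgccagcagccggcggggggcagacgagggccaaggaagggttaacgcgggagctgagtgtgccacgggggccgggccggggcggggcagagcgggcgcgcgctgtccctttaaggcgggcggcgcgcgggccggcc
Lef1: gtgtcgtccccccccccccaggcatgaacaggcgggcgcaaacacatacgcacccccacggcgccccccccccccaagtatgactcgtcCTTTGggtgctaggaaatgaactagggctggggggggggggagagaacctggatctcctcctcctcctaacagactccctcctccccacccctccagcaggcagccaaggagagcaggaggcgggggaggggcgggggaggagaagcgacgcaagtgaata
Fzd10: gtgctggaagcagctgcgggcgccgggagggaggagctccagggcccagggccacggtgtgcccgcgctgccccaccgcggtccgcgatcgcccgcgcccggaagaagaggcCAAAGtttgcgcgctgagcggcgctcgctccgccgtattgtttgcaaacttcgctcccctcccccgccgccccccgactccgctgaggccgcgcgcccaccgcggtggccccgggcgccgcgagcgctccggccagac

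A further 66 pathway genes outside the rule were followed, of which 65 had a probe and 61 were tested. Of these, 9 were higher in SCC, 11 were lower and 41 were not called, beside the 11.6% and 13.4% of all tested genes, and their median difference was 0.02. Of the called genes, Sostdc1 and Frzb passed the filter through the SCC group only and Pygo1 and Rspo4 through the WT group only, so their counts are given as a description. With slide as a fixed block, 5 of the 9 and 8 of the 11 kept their call, and Sostdc1 (adjusted p = 0.0501), Kremen1 (0.207), Vangl1 (0.0668), Tle3 (0.102), Sp5 (0.129), Rspo4 (0.349) and Pygo1 (0.145) lost it. In the destruction complex and the dishevelled proteins, which pass the signal from the receptor to β-catenin, 0 of 14 tested genes were called by limma at 2-fold, with differences from -0.63 for Dvl2 to 0.49 for Axin1. Of the 14, 5 passed the adjusted p alone, namely Dvl2, Amer1 (-0.60), Btrc (-0.58) and Csnk1e (-0.56), which were lower, and Axin1, which was higher.

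Among secreted agonists and surface proteins, 3 of 8 tested genes were lower and none was higher. Rspo1, which encodes an R-spondin that binds the Lgr receptors, fell most, by 4.37 ± 0.33 on the log2 scale (SE, n = 5 and 5; limma adjusted p = 1.05e-05). Its intensity was 13.58, 13.45, 13.59, 13.77 and 13.84 on WT replicates 1 to 5 and 9.19, 10.47, 8.40, 9.46 and 8.85 on SCC replicates 1 to 5. The highest tumour, replicate 2, lay well below the lowest lung. Gpc3, a cell surface proteoglycan, fell by 2.75 ± 0.23 on that scale, and Porcn and Wls, which every Wnt ligand needs for its lipid modification and its release, differed by 0.19 and -0.08 without passing the test.

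Among other antagonists, 3 of 8 tested genes were higher and 1 lower. Sostdc1, a secreted antagonist of BMP and Wnt signals, exceeded background in 5 of 5 tumours and in 0 of 5 lungs, so its level in SCC is given only as a bound, at least 11.9-fold higher. This bound was 18.9 when SCC replicate 5 was left out and 8.27 when SCC replicate 1 was. Frzb, a secreted decoy of the Sfrp type, was well above background on 2 WT and 5 SCC arrays, with a measured difference of 2.71. Kremen1, a Dkk receptor, rose by 1.81 ± 0.39, and Nkd2 fell by 1.25. Nuclear partners of β-catenin were higher for 1 (Tle3, 1.02) and lower for 3 of 11 genes, namely Tle4 (-1.44), Tle1 (-1.32) and Pygo1, which was well above background on 1 of 5 SCC arrays and had a measured difference of -2.56.

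The alternative receptors and planar polarity genes, which organise cells within a sheet, were higher for 3 and lower for 2 of 13. Celsr2 (2.52 ± 0.23), Celsr1 and Vangl1 rose, while Prickle1 (-3.21 ± 0.37) and Prickle2 (-2.02) fell. Genes reported as Wnt targets in other tissues were higher for 2 and lower for 2 of 7, and 3 were not called, with a median difference of 0.85. Sox9 rose by 5.11 ± 0.30 and Myc by 1.65, and Tnfrsf19 (-2.16 ± 0.27) and Sp5 (-1.06) fell. Of those not called, Cd44 (0.85, adjusted p = 0.000652) and Ascl2 (0.63, adjusted p = 0.0208) passed the adjusted p below 2-fold, and Mmp7 (1.92, adjusted p = 0.121) did not pass, with 0.95 without SCC replicate 2. The Sox9 intensity was 5.71, 5.98, 5.63, 5.20 and 5.03 on WT replicates 1 to 5 and 10.72, 11.10, 10.87, 9.53 and 10.86 on SCC replicates 1 to 5, with every SCC value above every WT value.

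**Figure D4:**
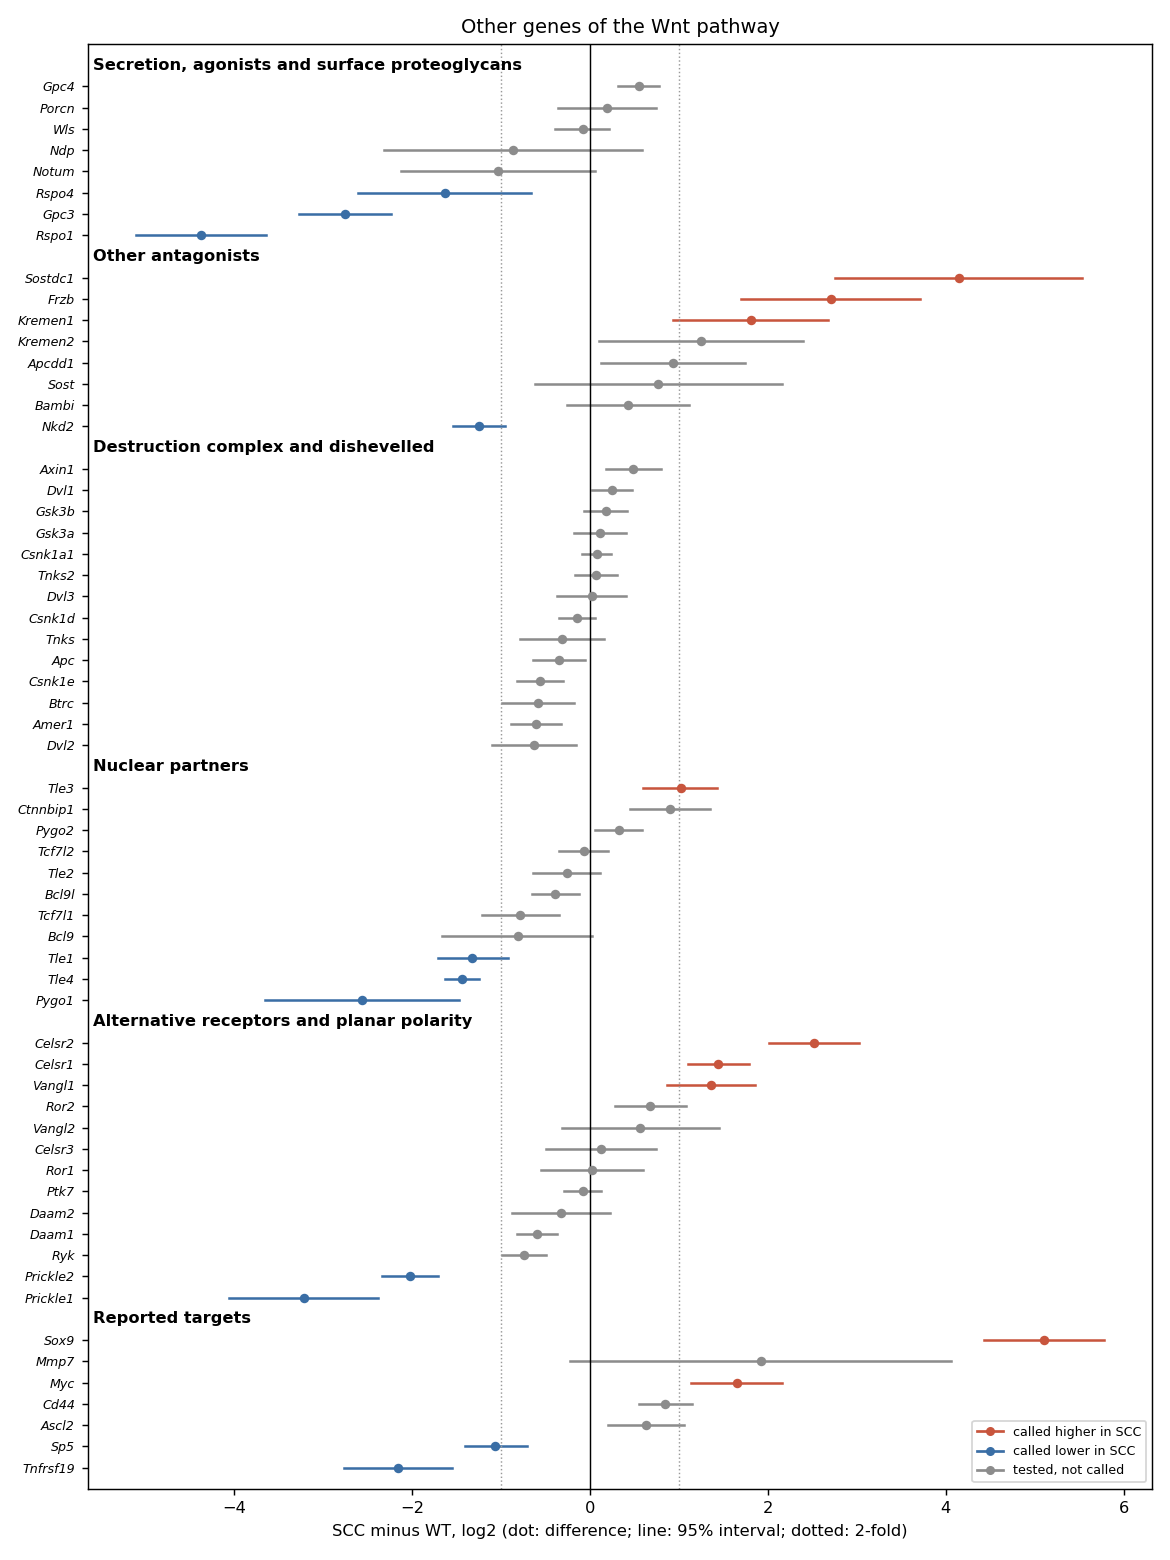
Difference between SCC and WT (log2, x axis) for the 61 tested pathway genes outside the 49 (y axis), grouped by role, with dots, 95% confidence intervals and calls drawn as for the Wnt genes. The 14 genes of the destruction complex and dishevelled group lie between -0.63 and 0.49, whereas Sox9 (5.11) and Rspo1 (-4.37) lie farthest out.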

How the data were processed

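The 10 arrays, 5 per group, were grouped by their titles. Scans had been read by the authors with Agilent Feature Extraction (version 12 per the labels' processing notes). For every spot the deposited scanner files give its linear, background-subtracted processed intensity, raw median intensities of spot and surroundings, and outlier and detection flags. A deposited log2 matrix, which the authors' methods describe as quantile-normalized, correlated with the log2 values computed here with r of at least 0.9999 on every array and was used to choose probes and as an alternative.

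Controls and spots marked as outliers were dropped, repeats of a probe were averaged, and 41174 probes were quantile-normalized. A probe counted as above background where at least 0.5 of its spots were flagged so, and was tested if this held on 4 of 5 arrays of a group, which left 30374 probes. The number of arrays limits the precision. The fit used limma 3.58.1 under R 4.3.3, with lmFit and eBayes, a two-sided test, no covariates and Benjamini-Hochberg adjustment over tested probes, in place of the one-way analysis of variance of the methods, and the fit was tested on simulated data. It called 6954 probes, with 3014 higher in SCC and 3940 lower. With 75th percentile scaling in place of quantiles, the median difference of tested probes moved from -0.09 to 0.03 and the share of higher calls from 43.3% to 53.2%. Single genes were also compared with an exact permutation test. Sostdc1 exceeded background on no WT array and on every SCC array. Its fold is a bound against the higher, per array, of the lowest signal above background and the probe's own.

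Symbols came from a RefSeq table (GRCm38.p6) through unversioned accessions, for 28223 of the probes (68.5%). The scanner files use another build, so gene order and promoter windows alone are taken from RefSeq. The genes, gene lists and tests were chosen with earlier results of these data known. Array values are given for the called genes with the 3 largest differences of each sign per role and for Ctnnb1, Axin2, Lef1, Tcf7, Lgr5 and Lgr6, with other pathway genes limited to the 5 largest called differences of each sign where statistics are given in full. The CTTTG core was added after the motif count was seen. Arrays were compared as possible duplicates. Over 245 probes with repeated spots, each pair of arrays differed by an SD of at least 0.339 log2 units. The median SD among repeats of a probe on 1 array was at most 0.132. Alternatives were other scaling, background correction, filters, blocks, tests, array weights, gene means and leaving out arrays.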

Additional observations from a re-analysis of the deposited data

Results flagged for a closer look

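Gaps were looked for in 80 groups of 5 arrays, 40 tested Wnt genes in each group, by dividing the gap between an extreme array and its nearest neighbour by the range of the group. Chance alone marks about 1 in 20 groups of this size, and 9 were marked. SCC replicate 2 was the low array for 5 genes. For Wnt10a its value was 11.61 beside 13.12 for the next array (gap of 0.932 of the range), for Fzd10 9.08 beside 10.45 (0.828), for Wnt4 9.89 beside 11.00 (0.82), for Wnt11 8.71 beside 9.57 (0.77) and for Sfrp1 10.07 beside 10.68 (0.739). The same array had the lowest squamous and proliferation means of the tumours, and the part of this in the gaps was not tested. SCC replicate 5, on which 90.2% of probes were above background, was low for Lgr6 (2.39 beside 4.35, gap 0.744) and Sfrp2 (2.52 beside 5.16, gap 0.714). WT replicate 5 was low for Fzd1 (12.32 beside 12.47, gap 0.895 of a range of 0.17), and WT replicate 1 for Fzd6 (8.75 beside 9.89, gap 0.782).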

How the results depend on the processing

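Of the 19 calls, 14 were kept under all 24 alternatives, and none of the 19 changed sign. Among the 14, Fzd2 lay at the edge of the adjusted p threshold with slide as a block (-1.11). Of the tested genes without a call, 6 changed sign in some alternative: Lgr4 with gene means (-0.60 to 1.15), Wnt11 with the slide block (0.15 to -0.72), and Fzd3, Fzd5, Fzd6 and Wnt1, whose differences lay between -0.12 and 0.04. Lgr5 was lost under 75th percentile scaling (-1.41, adjusted p = 0.155), normexp background (-0.48), slide as a fixed block (-1.84), an unmoderated analysis of variance at an unadjusted p below 0.01, the filter for all 10 arrays, and without WT replicate 2, WT replicate 3 or SCC replicate 1. Sfrp2 was lost under the slide block (-3.31, adjusted p = 0.133), Wnt6 under normexp, and Dkk2 and Wnt10b were not tested under the filter for all 10 arrays. Normexp with an offset of 50 shrank the differences of the genes with array values that were called, most for Dkk2 (4.29 to 2.19), Wnt10b (-3.84 to -1.72), Wnt10a (7.55 to 5.60), Sfrp2 (-4.03 to -2.18) and Fzd10 (4.97 to 3.25). Dkk3 was gained without WT replicate 3 or without SCC replicate 2, Lgr4 with gene means, Wnt2b with no filter, and 8 genes with the adjusted p alone.

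Called probes numbered 6954 in the analysis as reported, 3969 with normexp (1909 higher, 2060 lower), 2988 with slide as a fixed block (1402 and 1586) and 14878 with the adjusted p alone (6790 and 8088). Leaving out 1 array gave 6210 to 8095. The one-way analysis of variance that the methods name, with a 2-fold limit chosen here, called 5867 at an unadjusted p below 0.01, a threshold also chosen here, and 6525 after Benjamini-Hochberg adjustment. Other pathway genes called higher numbered 9, against 5 with the slide block and 16 with the adjusted p alone, and those lower 11, against 8 and 19. WT and SCC arrays of the same replicate number did not deviate together (r from -0.10 to 0.01). The samples were treated as unpaired in the analysis as reported, though so few arrays cannot exclude a pairing. With a replicate block, 6571 probes, 6 Wnt genes higher and 12 lower were called, and Lgr5 was lost (-1.63, adjusted p = 0.0538).

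WT and SCC shared only slide 2, so a difference with the slide block rests on its 1 WT and 3 SCC arrays. Dim probes, 9 of the 49 genes, carry no test here, and a missing call in them does not show a lack of expression.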
